A study of Mus musculus with 23 samples.

Results

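Ribosome biogenesis genes encode the proteins that make ribosomal RNA and fold, trim, modify and assemble it into ribosomal subunits. A list of 44 such genes was followed here through every group of the series. A gene counted as measured where a probe set named that gene and no other, and the probe set with the highest mean over all arrays stood for the gene. By that rule 40 of the 44 genes were measured, among 12393 genes with a probe set of their own. Dkc1, Wdr3 and Nat10 were not analysed here, and Mrto4 was covered only by a probe set that also names its pseudogenes. The measured members comprised 8 proteins of small nucleolar ribonucleoproteins (snoRNPs), 3 subunits of RNA polymerase I, 3 abundant nucleolar proteins, 14 small subunit assembly factors and 12 large subunit assembly factors.

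The series lists 23 Affymetrix Mouse 430A 2.0 arrays in 6 groups, of which 20 were found to be distinct hybridisations. Mouse embryonic fibroblasts (MEFs), taken at E13.5, were wild type, Ezh2-deficient or Snf5 Ezh2-deficient, with 3 arrays per group, and the labels give each mutant line a set of 3 wild-type controls, which proved to be the same 3 hybridisations. Ezh2 is the histone methyltransferase of the Polycomb complex PRC2. The gene Smarcb1 encodes Snf5, which belongs to the SWI/SNF chromatin remodeller. CD8+ T cells were purified from wild-type mice on 6 arrays and from Snf5-deficient lymphomas on 5 arrays, all from mice aged 10 to 15 weeks. The labels name biological replicates, and do not say which Cre or alleles were used, whether MEF lines came from separate embryos or whether animals were pooled. The series title names an antagonism between Snf5 and Ezh2 in transformation as the question.

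Ribosome production starts in the nucleolus, where RNA polymerase I transcribes the ribosomal RNA precursor. Box C/D snoRNPs guide methylation of that precursor and box H/ACA snoRNPs guide its pseudouridylation, while large assembly complexes cleave and fold it into the small and the large subunit. These genes are known to be expressed at high levels in growing and dividing cells, and many are known targets of the transcription factor Myc.

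The values were log2 intensities, so a difference of 1 is a doubling. A gene was called where the p-value of limma, adjusted by Benjamini-Hochberg over all 22626 probe sets, was under 0.05, and log2 differences below are given with the standard error (SE) of that fit. The wild-type MEF arrays of both sets were found to hold the same 3 hybridisations. This was read over the 7349 probe sets with a mean log2 above 9, after the sets' mean difference was removed per probe set. Arrays of the same number then differed with an SD of 0.0266 to 0.0287, against 0.141 to 0.163 between numbers. They were therefore counted once, and both MEF comparisons share all their controls. Ezh2 lay at 5.63 to 6.65 on the mutant MEF arrays against 7.81 to 8.07 on the wild-type ones, and Smarcb1 at 6.56 to 6.83 in the Snf5 Ezh2-deficient MEFs against 9.08 to 9.25 in their controls. On the lymphoma arrays Smarcb1 lay at 8.3, 8.49, 5.81, 5.64 and 8.67, against 10.38 to 11.48 in wild-type CD8+ T cells. Wild-type CD8 arrays 1 and 6 stood apart, with means over 12 myeloid markers of 12.52 and 12.47 against 6.4 to 8.44 on the other 4, means over 9 B cell markers of 10.93 and 10.81 against 7.59 to 8.71, and Cd8a at 10.73 and 10.59 against 13.32 to 13.64. Arrays 3 and 4 of both T cell groups also stood apart. Their means over 6 erythroid markers were 6.48 and 6.05 in wild type and 6.12 and 5.93 in lymphomas, against 9.17 to 10.2 and 8.17 to 8.53 on the other arrays. Counts of called members in lymphomas are therefore given with and without these arrays. Single members are given with all arrays unless stated otherwise. Col1a1, a collagen gene of fibroblasts, lay at 13.1 to 13.8 on all MEF arrays and at 5.11 to 5.92 on all T cell arrays.

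The called members were mostly lower in Snf5 Ezh2-deficient MEFs and all higher in Snf5-deficient lymphomas. Of the 40 measured members, 18 were lower and 1 was higher in those MEFs than in wild-type MEFs, where 14.3% of all genes were lower and 13.2% higher. In the lymphomas 20 were higher and 0 lower than in wild-type CD8+ T cells, where 9.13% of all genes were higher, and this count dropped to 9 without lymphoma array 5 and to 3 without arrays 3 and 4 of both groups. In Ezh2-deficient MEFs 0 of the 40 were called. These settings differ in cell type, in the Ezh2 genotype and in transformation, which cannot be told apart between them. No member lay in the lowest 25% of genes on any array. MEF and T cell arrays were compared only within their own kind, since their overall medians differed.

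**Figure D1:**
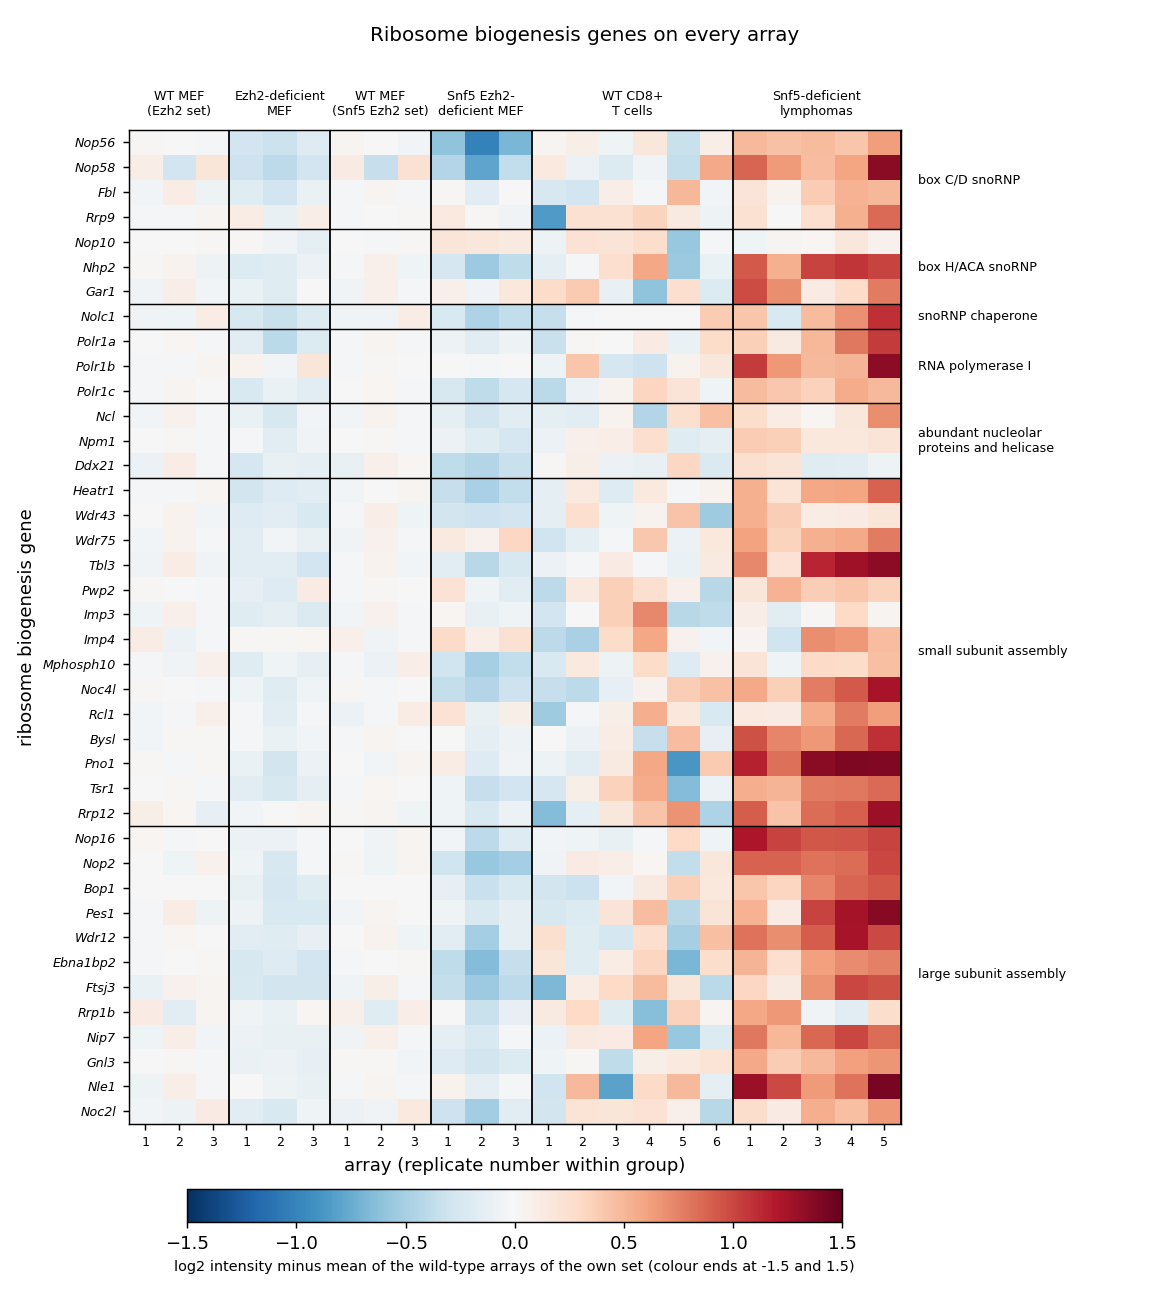
Log2 intensity of each of the 40 measured members (rows, grouped by role) on each of the 23 arrays (columns, grouped by title), minus the mean of the wild-type arrays of the own set, in blue where lower and in red where higher. The Snf5 Ezh2-deficient MEF columns are mostly blue and the lymphoma columns mostly red, and Snf5 Ezh2-deficient array 2 is the bluest, with a mean over all members of 8.93 against 9.12 and 9.06 on the other 2.

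In Ezh2-deficient MEFs the members sat slightly below wild type without passing the test. The log2 difference was below 0 for 37 of the 40 members, with a median of -0.14 and a range of -0.34 to 0.06, while the median over all 12393 genes was 0.004. With limma 0 members were called higher and 0 lower, where 1.02% of all genes were called higher and 2.47% lower, and the smallest adjusted p of a member was 0.0643. At an unadjusted p under 0.05, 16 of the 40 members were lower and 0 higher, and 13.9% of all genes were lower at that threshold. All 3 mutant arrays lay below all 3 wild-type arrays for 22 of the 40 members, as they did for 18.1% of all genes.

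The member with the largest called change of any MEF comparison, Nop56, a core protein of box C/D snoRNPs, read 9.58, 9.54 and 9.67 on the Ezh2-deficient arrays and 9.88, 9.86 and 9.85 on the wild-type arrays. These values do not overlap, with a log2 difference of -0.27 (SE 0.0953, adjusted p = 0.135). Nolc1, a chaperone that travels with snoRNPs, read 9.56, 9.47 and 9.6 against 9.75, 9.74 and 9.92, a difference of -0.26 (SE 0.0778, adjusted p = 0.0895). All mutant arrays of Nolc1 were the lower ones.

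The lowest p among the members belonged to Ftsj3, a nucleolar RNA methyltransferase of large subunit assembly. It read 8.08, 8.04 and 8.03 in Ezh2-deficient MEFs and 8.21, 8.37 and 8.35 in wild type, a difference of -0.26 (SE 0.0671, adjusted p = 0.0643). Polr1a, the largest subunit of RNA polymerase I, read 8.18, 7.95 and 8.15 against 8.34, 8.38 and 8.33, a difference of -0.25 (SE 0.0691, adjusted p = 0.0741). In both genes the mutant arrays were all below the wild-type arrays, by amounts that missed the threshold.

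Wdr43, a component of the early small subunit processome, read 8.55, 8.58 and 8.52 against 8.74, 8.8 and 8.7, a difference of -0.2 (SE 0.0562, adjusted p = 0.0826). The RNA helicase Ddx21 read 8.93, 9.07 and 9.05 against 9.1, 9.29 and 9.16, a difference of -0.17 (SE 0.0688, adjusted p = 0.171). Nhp2, of the box H/ACA snoRNPs, read 10.51, 10.53 and 10.63 against 10.73, 10.77 and 10.64, a difference of -0.15 (SE 0.0799, adjusted p = 0.27). None of the 3 overlapped with wild type, though Nhp2 on Ezh2-deficient array 3 lay just under the lowest wild-type array.

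Beside these small differences, 19 of 28 proliferation genes (67.9%) were called lower in the same arrays, with a median of -0.54, where 2.47% of all genes were lower. Their mean was 7.95, 8.01 and 8.13 on the Ezh2-deficient arrays against 8.4, 8.67 and 8.53 on the wild-type arrays. The part of proliferation in the members' values was not tested.

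In Snf5 Ezh2-deficient MEFs 18 members fell, and only Imp4 rose. The share of members called lower was read against 14.3% of all genes called lower, and the rise of Imp4 against 13.2% called higher. The members' median was -0.2 with a range of -0.77 to 0.21, and the median over all genes was -0.003. For 24 members all 3 mutant arrays lay below all wild-type arrays, against 22.9% of all genes, and for 3 members they lay above, against 21% of all genes. Of the 19 called members, 13 kept their call whichever single array was left out. The mean over all members was 9.12, 8.93 and 9.06 on the mutant arrays and 9.22 to 9.24 on their controls.

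**Figure D2:**
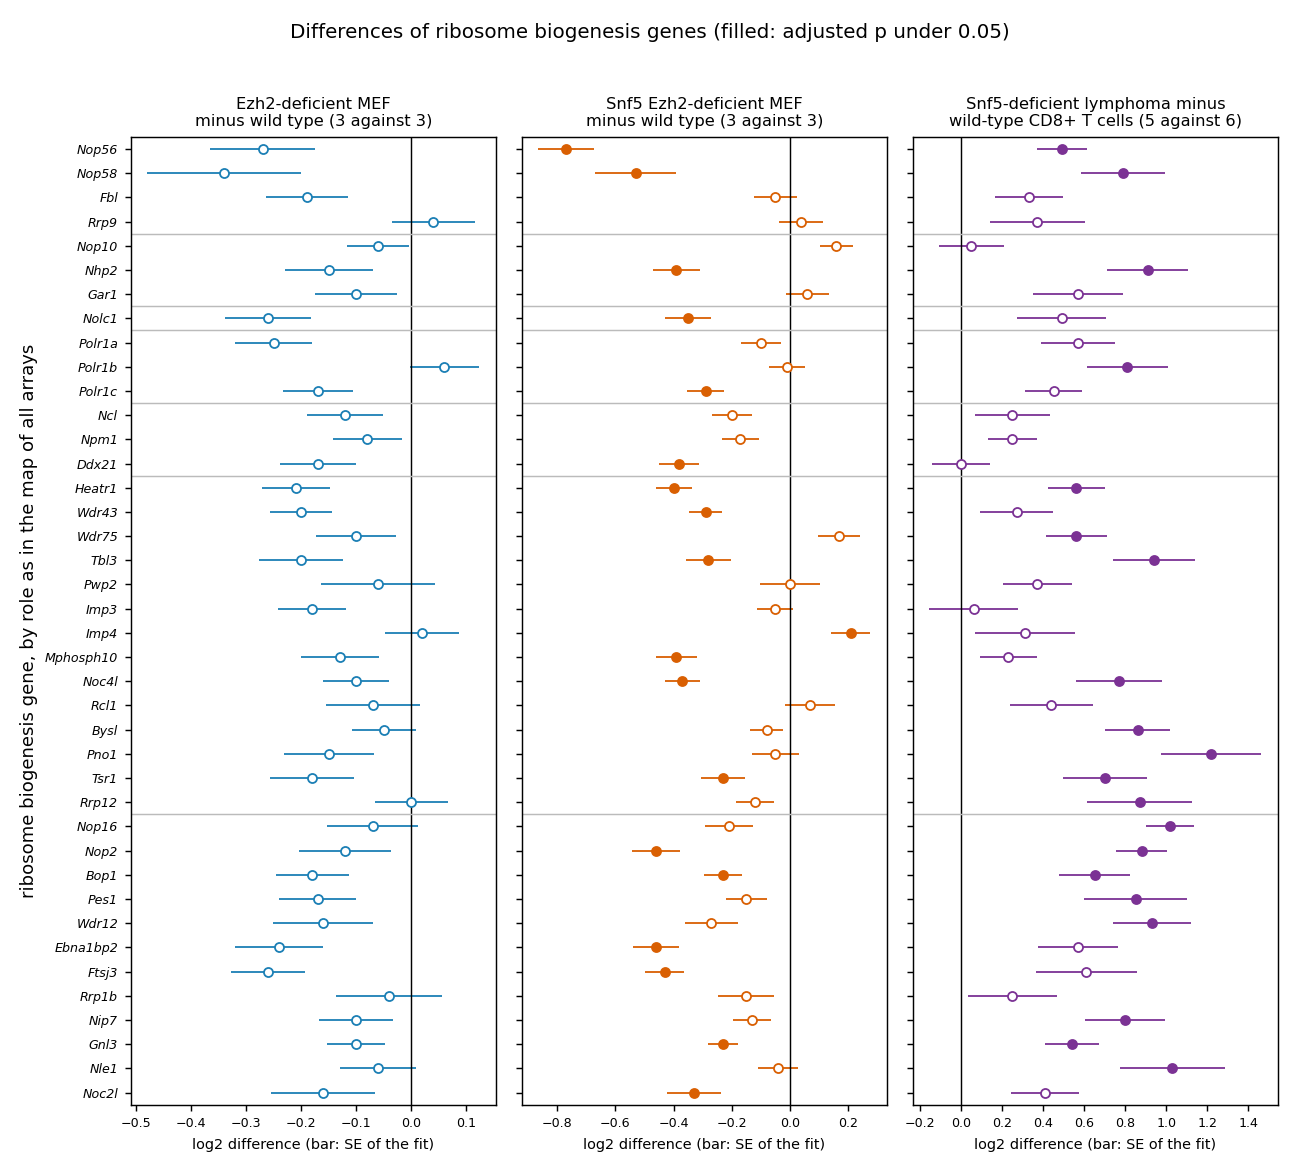
Log2 difference of each of the 40 measured members (rows, by role) in Ezh2-deficient MEFs, Snf5 Ezh2-deficient MEFs and Snf5-deficient lymphomas, each against wild type, with bars for the standard error and filled points for an adjusted p under 0.05. The first panel holds no filled point, the second 18 below 0 and 1 above, and the third 20 above 0, and the horizontal scales differ between panels.

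Both kinds of snoRNP held members that fell and members that were not called. Of the 4 box C/D proteins, Nop56 and Nop58 fell, while Fbl, the methyltransferase of the particle, and Rrp9, which binds the U3 snoRNA, were not called. Nop56 read 9.21, 8.8 and 9.12 on the mutant arrays and 9.85, 9.81 and 9.77 on the controls, which puts every mutant array below every control. The log2 difference was -0.77 (SE 0.0953, adjusted p = 0.00026), or 1.7-fold lower.

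Nop58, the partner of Nop56 in the particle, read 9.3, 8.95 and 9.37 against 9.86, 9.39 and 9.96. The groups did not overlap, but the highest mutant array lay just under the lowest control array. The difference was -0.53 (SE 0.139, adjusted p = 0.0175), and the adjusted p rose to 0.0668 to 0.0775 when array 1 or 3 of the wild type or array 2 of the mutant was left out. Fbl differed by -0.05 (SE 0.0744, adjusted p = 0.691) and Rrp9 by 0.04 (SE 0.0757, adjusted p = 0.759), and both overlapped with the controls.

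Of the 3 measured box H/ACA proteins, Nhp2 fell, and Gar1 and Nop10 were not called. Nhp2 read 10.44, 10.15 and 10.31 against 10.68, 10.77 and 10.63, with no overlap, a difference of -0.39 (SE 0.0799, adjusted p = 0.00474). Nop10 read 11.42, 11.4 and 11.37 against 11.23, 11.22 and 11.25, so all mutant arrays were the higher ones, and its difference of 0.16 (SE 0.0566, adjusted p = 0.0622) missed the threshold. Nolc1 read 9.51, 9.27 and 9.37 against 9.68, 9.68 and 9.84, below all controls, and fell by 0.35 (SE 0.0778, adjusted p = 0.00748).

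Of the 3 RNA polymerase I subunits, Polr1c, which is shared with RNA polymerase III, fell. It read 8.93, 8.78 and 8.92 on the mutant arrays against 9.16, 9.2 and 9.14, without overlap, a difference of -0.29 (SE 0.0633, adjusted p = 0.00648). Polr1a differed by -0.1 (adjusted p = 0.351) and Polr1b, the second-largest subunit, by -0.01 (adjusted p = 0.93). Among the abundant nucleolar proteins, Ddx21 read 8.63, 8.57 and 8.68 against 8.9, 9.09 and 9.04. All mutant arrays of Ddx21 were lower, and it fell by 0.38 (SE 0.0688, adjusted p = 0.00249). Nucleolin (Ncl) differed by -0.2 (adjusted p = 0.0613) and nucleophosmin (Npm1) by -0.17 (adjusted p = 0.0712), both below all controls.

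Of the 14 small subunit assembly factors, 6 fell and 1 rose. Heatr1, a scaffold of the early processome, read 8.78, 8.63 and 8.75 on the mutant arrays and 9.08, 9.12 and 9.16 on the controls. All mutant arrays were lower, and the difference was -0.4 (SE 0.0618, adjusted p = 0.000967). Mphosph10, of the U3-associated complex, fell by 0.39, Noc4l by 0.37, Wdr43 by 0.29, the processome protein Tbl3 by 0.28 and the late-acting factor Tsr1 by 0.23. Tbl3 and Tsr1 were the less firm ones, since 3 and 5 of the 6 omissions of a single array took their adjusted p to between 0.0512 and 0.142.

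Imp4, which works in 1 complex with Mphosph10 and Imp3, was the only called member with a rise. It read 9.4, 9.21 and 9.34 against 9.19, 9.06 and 9.09 on the controls, so the lowest mutant array lay just above the highest control. The difference was 0.21 (SE 0.0673, adjusted p = 0.0458), and 4 of the 6 omissions of a single array took it to 0.103 to 0.15. Imp3 differed by -0.05 (adjusted p = 0.604), so of the 3 proteins of the complex 1 fell, 1 rose and 1 was not called. The remaining 6 small subunit factors, Wdr75, Pwp2, Rcl1, Bysl, Pno1 and Rrp12, had differences from -0.12 to 0.17.

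Of the 12 large subunit assembly factors, 6 fell and all 12 had a difference below 0, with a median of -0.23. Ebna1bp2 read 9.02, 8.75 and 9.05 on the mutant arrays and 9.38, 9.4 and 9.41 on the controls, and Nop2, an rRNA cytosine methyltransferase, read 9.35, 9.08 and 9.14 against 9.67, 9.58 and 9.69. Neither gene overlapped with its controls. Both fell by 0.46, with adjusted p of 0.00189 for Ebna1bp2 and 0.0026 for Nop2. Ftsj3 fell by 0.43, Noc2l by 0.33, and Bop1 and the nucleolar GTP-binding protein Gnl3 by 0.23 each. Bop1 forms a complex with Pes1 and Wdr12, whose differences were -0.15 (adjusted p = 0.16) and -0.27 (adjusted p = 0.0508). Noc2l and Bop1 were called in 3 and in 1 of the 6 omissions of a single array.

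Set against Ezh2-deficient MEFs through the shared controls, Snf5 Ezh2-deficient MEFs had 6 members (15%) lower and 2 (5%) higher. Over all genes 13.6% were lower and 16.3% higher, so the share of lower members is near that of all genes and the share of higher ones is below it. The fit ignores the error of the offset between the 2 sets. Nop56 was lower by 0.5 (SE 0.0953, adjusted p = 0.00337), Nop2 by 0.34, Noc4l by 0.27, Mphosph10 by 0.26, Ddx21 by 0.21 and Heatr1 by 0.19. Wdr75, of the early processome, was higher by 0.28 (SE 0.0723, adjusted p = 0.0168) and Nop10 by 0.22 (SE 0.0566, adjusted p = 0.0163). This comparison shares its arrays with both of the others. The count of 6 dropped to 3 without Ezh2-deficient array 2 or without Snf5 Ezh2-deficient array 2, and 1 of the 2 rises was lost without array 1 or 3 of either line.

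The other genes of the pathway were counted from lists of known factors. Of 106 measured further assembly factors, 28 (26.4%) were lower and 7 (6.6%) higher in Snf5 Ezh2-deficient MEFs, with a median of -0.11, beside 14.3% and 13.2% of all genes. The 41 large subunit factors among them held 16 (39%) lower and 3 higher ones, led by Sbds (-0.49) and Efl1 (-0.47), which release a factor from the finished large subunit. The 36 small subunit factors held 7 (19.4%) lower and 2 higher ones, led by the helicase Ddx10 (-0.39) and the kinase Riok2 (-0.33). Of 11 further polymerase I factors 2 were lower, Polr1d (-0.42) and Taf1d (-0.36), and 1 higher. Of 6 snoRNP assembly factors 1 was lower, Ruvbl2 (-0.26). These last 2 shares, 18.2% and 16.7%, lie near the 14.3% of all genes.

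Ribosomal proteins themselves showed no such count. Of 45 measured ribosomal protein genes 0 were lower and 1 was higher in Snf5 Ezh2-deficient MEFs, Rps27l at 0.43 (adjusted p = 0.000231), a p53 target, and their median was -0.01. In Ezh2-deficient MEFs 0 of the 45 were called, with a median of -0.03. Of 12 genes of the RNA exosome, which trims the precursor, 2 (16.7%) were lower and 1 (8.33%) higher in Snf5 Ezh2-deficient MEFs. These shares were read against 14.3% lower and 13.2% higher over all genes. The higher one was Exosc9, with a difference of 1.44 (adjusted p = 5.82e-06) there and 0.65 (adjusted p = 0.00834) in Ezh2-deficient MEFs.

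Of 9 genes of the Myc network, 3 (33.3%) were lower and 1 (11.1%) higher in Snf5 Ezh2-deficient MEFs, beside 14.3% and 13.2% of all genes. Myc read 8.6, 8.36 and 8.34 against 9.14, 8.92 and 9.12 on the controls, with no overlap and a difference of -0.63 (adjusted p = 0.000705), and Mycn differed by -0.68 (adjusted p = 0.000233). In Ezh2-deficient MEFs Myc read 9.08, 8.99 and 9.19, which overlaps with 9.23, 9.04 and 9.26 on the controls. The part of Myc in the members' values was not tested. Proliferation genes were near wild type, with 2 of 28 higher and 1 lower and a median of 0.01.

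Promoter sequence is shown for Nop56, with the largest called change among the MEF comparisons, and for Pno1, with the largest among the lymphoma comparisons. Nop2 is added, chosen after its values were seen, because it was called in Snf5 Ezh2-deficient MEFs and in lymphomas and holds every motif searched. Tsr1 met the same conditions with all wild-type CD8 arrays and is not shown. The sequences are from RefSeq on GRCm38.p6, read 5′ to 3′ along the gene's strand, end at the base before the annotated gene, and are in lower case with motif matches in capitals. Nop56 lies at chr2:130274162-130274366 (205 bases, plus strand), Nop2 at chr6:125131633-125131882 (250 bases, plus strand) and Pno1 at chr11:17211590-17211839 (250 bases, minus strand).
Nop56: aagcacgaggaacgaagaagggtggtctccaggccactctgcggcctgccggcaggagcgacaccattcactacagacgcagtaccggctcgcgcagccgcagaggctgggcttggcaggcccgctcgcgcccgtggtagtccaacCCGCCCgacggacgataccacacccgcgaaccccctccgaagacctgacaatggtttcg
Nop2: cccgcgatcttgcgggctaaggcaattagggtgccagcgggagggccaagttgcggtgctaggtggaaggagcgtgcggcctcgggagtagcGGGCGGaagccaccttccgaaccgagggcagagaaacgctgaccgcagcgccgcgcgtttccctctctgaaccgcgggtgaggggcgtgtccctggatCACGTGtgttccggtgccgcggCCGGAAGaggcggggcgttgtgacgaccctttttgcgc
Pno1: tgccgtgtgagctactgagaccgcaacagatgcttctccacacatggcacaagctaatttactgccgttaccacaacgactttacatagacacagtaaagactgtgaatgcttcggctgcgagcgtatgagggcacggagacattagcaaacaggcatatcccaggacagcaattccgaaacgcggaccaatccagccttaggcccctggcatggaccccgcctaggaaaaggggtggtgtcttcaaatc

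The motifs were the Myc-type E-box CACGTG, the ETS motif CCGGAAG and the GC-box GGGCGG, each searched on both strands in windows of 250 bases before and 50 after the start of 35 matched members. The stretch shown for Nop56 holds 1 GC-box, read here on the opposite strand. Nop2 holds a GC-box, an E-box and an ETS motif, which begin 158, 60 and 38 bases before its start, and Pno1 holds none before its start and an E-box after it. The E-box was present for 7 of the 35 members (20.0%) and for 8.1% of all 27025 genes in the table, the ETS motif for 12 (34.3%) against 9.9%, and the GC-box for 25 (71.4%) against 38.2%. Nop2, Tsr1 and Nle1 were among the members with an E-box, and Wdr43, Imp4, Pno1 and Pes1 were the others. A match describes the letters of the window only.

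In Snf5-deficient lymphomas 20 members were higher than in wild-type CD8+ T cells and 0 were lower, where 9.13% of all genes were higher and 7.71% lower. All 40 differences were above 0 or rounded to 0, with a median of 0.57 and a range of 0 to 1.22, while the median over all genes was -0.066. For 12 members all 5 lymphoma arrays lay above all 6 wild-type arrays, against 7.09% of all genes. The mean over all members was 11.79, 11.59, 11.77, 11.88 and 12.03 on the lymphoma arrays and 11.05 to 11.41 on the wild-type arrays, and these did not overlap. Only 3 members were called with a difference of at least 1, that is a doubling, and in bulk cells a change in RNA per cell cannot be told apart from a change in the kinds of cells present.

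The count depended on which arrays entered. Using wild-type CD8 arrays 2 to 5 left out the 2 arrays richest in myeloid and B cell markers. Arrays 2 and 5 still read 12.75 and 13.25 for erythroid Slc4a1 and 11.99 and 11.39 for myeloid Mpo. Arrays 3 and 4 read 6.58 and 5.49 for Slc4a1 and 4.49 and 5.22 for Mpo. The erythroid markers Klf1, Car2, Alas2 and Epor were likewise higher on arrays 2 and 5. Klf1 read 11.58 and 11.92 there against 5.93 and 5.79 on arrays 3 and 4. Hba-a1 was low on every T cell array, at 3.58 to 4.7. Myeloid markers were mixed, with Elane higher on arrays 2 and 5 and Cd14 low on all 4. Against these 4 arrays 18 members were higher and 0 lower, where 13.2% of all genes were higher and 13.2% lower. For 14 members every lymphoma array lay above all 4 wild-type arrays, against 13% of all genes. Of the 20 members called with all arrays 17 were called here too, Tsr1, Rrp12 and Pes1 were not, and Ebna1bp2 was added. With all wild-type arrays the count fell from 20 to 9 without lymphoma array 5, to 11 without array 4, to 12 without array 3, and to 13 without lymphoma array 1 or wild-type array 2. Among arrays 3 and 4 of both groups, the ones low in erythroid markers, 6 members were called, and 3 when these 4 arrays were left out. These 3 were Nop16, Nop2 and Nhp2, and every other member called with all arrays lost its call there.

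**Figure D3:**
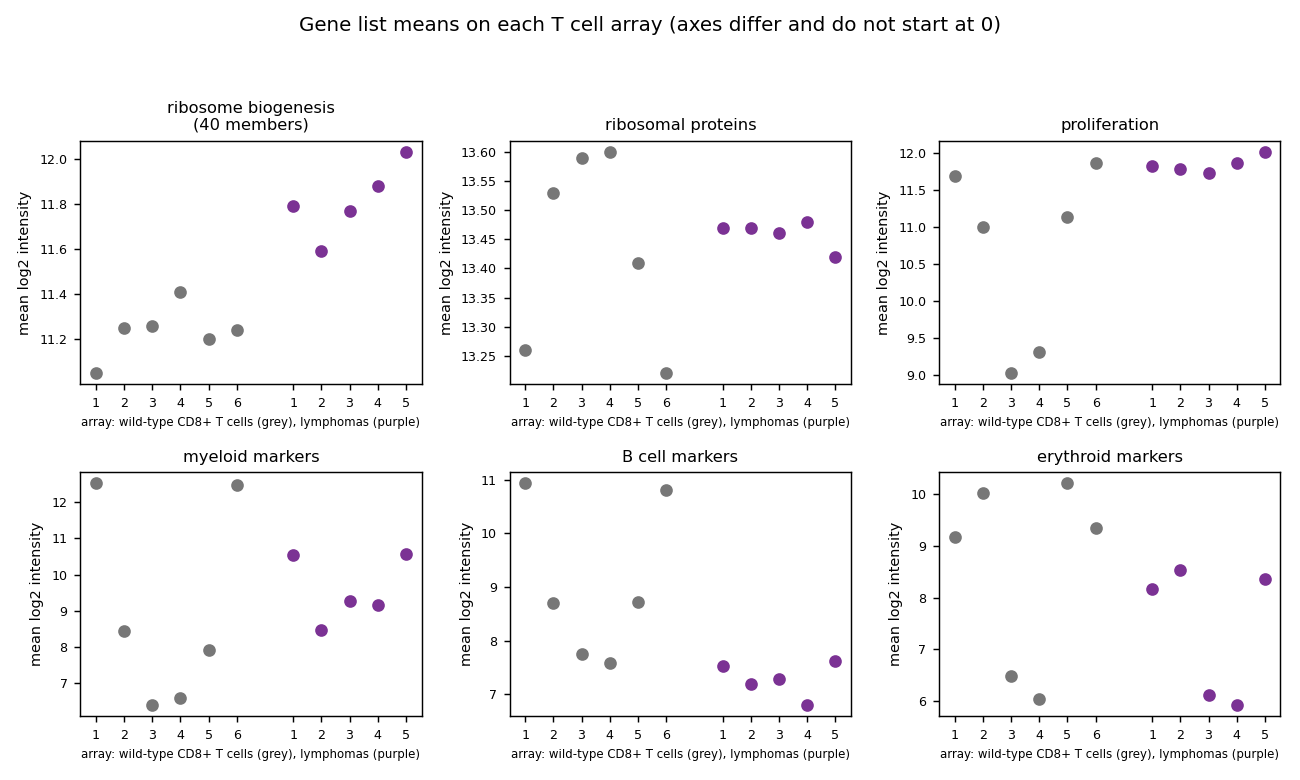
Mean log2 intensity over the genes of 6 lists (panels) on each of the 6 wild-type CD8+ T cell arrays (grey) and 5 lymphoma arrays (purple). The 40 members are higher on every lymphoma array than on any wild-type array, the ribosomal proteins are not, and the proliferation genes are lowest on wild-type arrays 3 and 4, at 9.02 and 9.31.

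Markers of proliferation and of other cells differed between the T cell arrays. The mean over 28 proliferation genes was 11.74 to 12.02 on the lymphoma arrays and 11.7, 11, 9.02, 9.31, 11.14 and 11.87 on wild-type arrays 1 to 6, so only array 6 reached into the range of the lymphomas and none of arrays 2 to 5 did. Of the 28 genes 4 (14.3%) were higher with all wild-type arrays, with a median of 1.16, where 9.13% of all genes were higher. Against arrays 2 to 5, 18 (64.3%) were higher, with a median of 1.85, where 13.2% of all genes were higher. The members' mean on wild-type arrays 1 to 6 was 11.05, 11.25, 11.26, 11.41, 11.2 and 11.24. The myeloid mean was 8.47 to 10.57 on the lymphoma arrays, above wild-type arrays 2 to 5 and below arrays 1 and 6, and the B cell mean was 6.8 to 7.62. The part of these cells and of proliferation in the members' values was not tested.

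Among the snoRNP members, Nop56, Nop58 and Nhp2 were called. Nhp2 read 12.4, 12.02, 12.5, 12.56 and 12.5 in lymphomas against 10.93, 11.41 and 12.06 as the lowest, median and highest wild-type array. Only the lymphoma array at 12.02 overlapped with wild type. The difference was 0.91 (SE 0.198, adjusted p = 0.011), with a two-sided exact permutation p of 0.00649 over the 462 divisions of the arrays, the smallest possible being 0.00216.

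Nop58 read 12.09, 11.86, 11.68, 11.81 and 12.57 against 10.86, 11.14 and 11.78. Lymphoma array 3 alone lay under the highest wild-type array, which was array 6. The difference was 0.79 (SE 0.204, adjusted p = 0.0257) and 0.96 (SE 0.191, adjusted p = 0.00662) against wild-type arrays 2 to 5, where no array overlapped. With all wild-type arrays its adjusted p passed 0.05, at 0.0515 to 0.06, without wild-type array 2 or 3 or lymphoma array 1 or 5.

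Nop56 read 13.28, 13.23, 13.27, 13.21 and 13.42 against 12.46, 12.86 and 12.97, so all lymphoma arrays were higher. The difference was 0.49 (SE 0.121, adjusted p = 0.0215), lost at 0.0505 and 0.0602 without lymphoma array 3 or 5. Nolc1 read 11.9, 11.25, 11.95, 12.17 and 12.57 against 11.13, 11.47 and 11.86, with lymphoma array 2 inside the wild-type range. Its difference of 0.49 (SE 0.218) had an adjusted p of 0.16, and Fbl, Rrp9, Gar1 and Nop10 were not called, at 0.33, 0.37, 0.57 and 0.05.

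Polr1b was the called subunit of RNA polymerase I. It read 9.8, 9.4, 9.24, 9.26 and 10.09 against 8.44, 8.75 and 9.17, with every lymphoma array above every wild-type array. The difference was 0.81 (SE 0.198, adjusted p = 0.0195, exact permutation p = 0.00433), with an adjusted p of 0.0529 without lymphoma array 1. Polr1a at 0.57 (adjusted p = 0.0576) and Polr1c at 0.45 (adjusted p = 0.0532) missed the threshold.

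None of the 3 abundant nucleolar proteins was called through its chosen probe set. Another probe set was called higher for Ncl (0.73, adjusted p = 0.018) and for Ddx21 (0.77, adjusted p = 0.0321). The remaining ones of Ncl and that of Npm1 were not called. Npm1 read 14.07, 14.04, 13.84, 13.84 and 13.88 in lymphomas. Wild-type arrays 1 to 4 and 6 read 13.59, 13.76, 13.78, 13.93 and 13.54, with array 5 lower still, so 3 of the lymphoma arrays lay inside the wild-type range. On the chosen probe sets the difference of Npm1 was 0.25 (SE 0.121, adjusted p = 0.187), that of Ncl 0.25 (adjusted p = 0.382) and that of Ddx21 0 (SE 0.14, adjusted p = 0.991).

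Of the 14 small subunit factors 8 were higher. Pno1, an RNA-binding protein of the late small subunit precursor, had the largest difference of all members. It read 11.64, 11.31, 11.84, 11.88 and 11.87 in lymphomas against 9.61, 10.51 and 11.06 in wild type, and no array overlapped. The difference was 1.22, or 2.34-fold (SE 0.244, adjusted p = 0.0073, exact permutation p = 0.00433). Its adjusted p stayed under 0.05 in all 11 omissions of a single array, and was 0.0722 without arrays 3 and 4 of both groups.

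Tbl3 was higher by 0.94, Rrp12 by 0.87, Bysl by 0.86, Noc4l by 0.77, Tsr1 by 0.7, and Heatr1 and Wdr75 by 0.56. Bysl and Tbl3 did not overlap with wild type and kept their call in all 11 omissions of a single array. Both lost it without arrays 3 and 4 of both groups, and the second Bysl probe set was not called (0.35, adjusted p = 0.341). Tsr1 and Rrp12 lost their call in 8 of the 11 each. Imp3, Imp4 and Mphosph10, the 3 proteins of the U3-associated complex, were not called, at 0.06, 0.31 and 0.23.

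Of the 12 large subunit factors 8 were also higher. Nop16, a nucleolar protein of early large subunit assembly, had the smallest adjusted p of all members. It read 10.34, 10.14, 10.06, 10.07 and 10.14 against 9.02, 9.08 and 9.43, and the lowest lymphoma array lay well above the highest wild-type array. The difference was 1.02, or 2.03-fold (SE 0.117, adjusted p = 4e-04, exact permutation p = 0.00216, the smallest possible).

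Nop2, which was lower in Snf5 Ezh2-deficient MEFs, read 11.72, 11.72, 11.65, 11.68 and 11.84 against 10.47, 10.9 and 11.01, again with no overlap. Its difference was 0.88 (SE 0.125, adjusted p = 0.00118). Nop16 and Nop2 were the only members called under every alternative, those on arrays 3 and 4 included.

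Nle1, which binds the immature large subunit until a large ATPase removes it, read 9.11, 8.81, 8.46, 8.63 and 9.24 against 7.01, 7.88 and 8.31. The wild-type arrays were widely spread, and none reached a lymphoma array. The difference was 1.03, or 2.04-fold (SE 0.257, adjusted p = 0.0211), with an adjusted p of 0.0548 and 0.0577 without lymphoma array 1 or 5. Bop1, Pes1 and Wdr12, which form 1 complex, were all called, at 0.65, 0.85 and 0.93, and so were Nip7 at 0.8 and Gnl3 at 0.54. Of these Wdr12 was called in all 11 omissions of a single array, and Pes1 in 3. Wdr12 lost its call without arrays 3 and 4 of both groups and with the mean of all its probe sets.

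**Figure D4:**
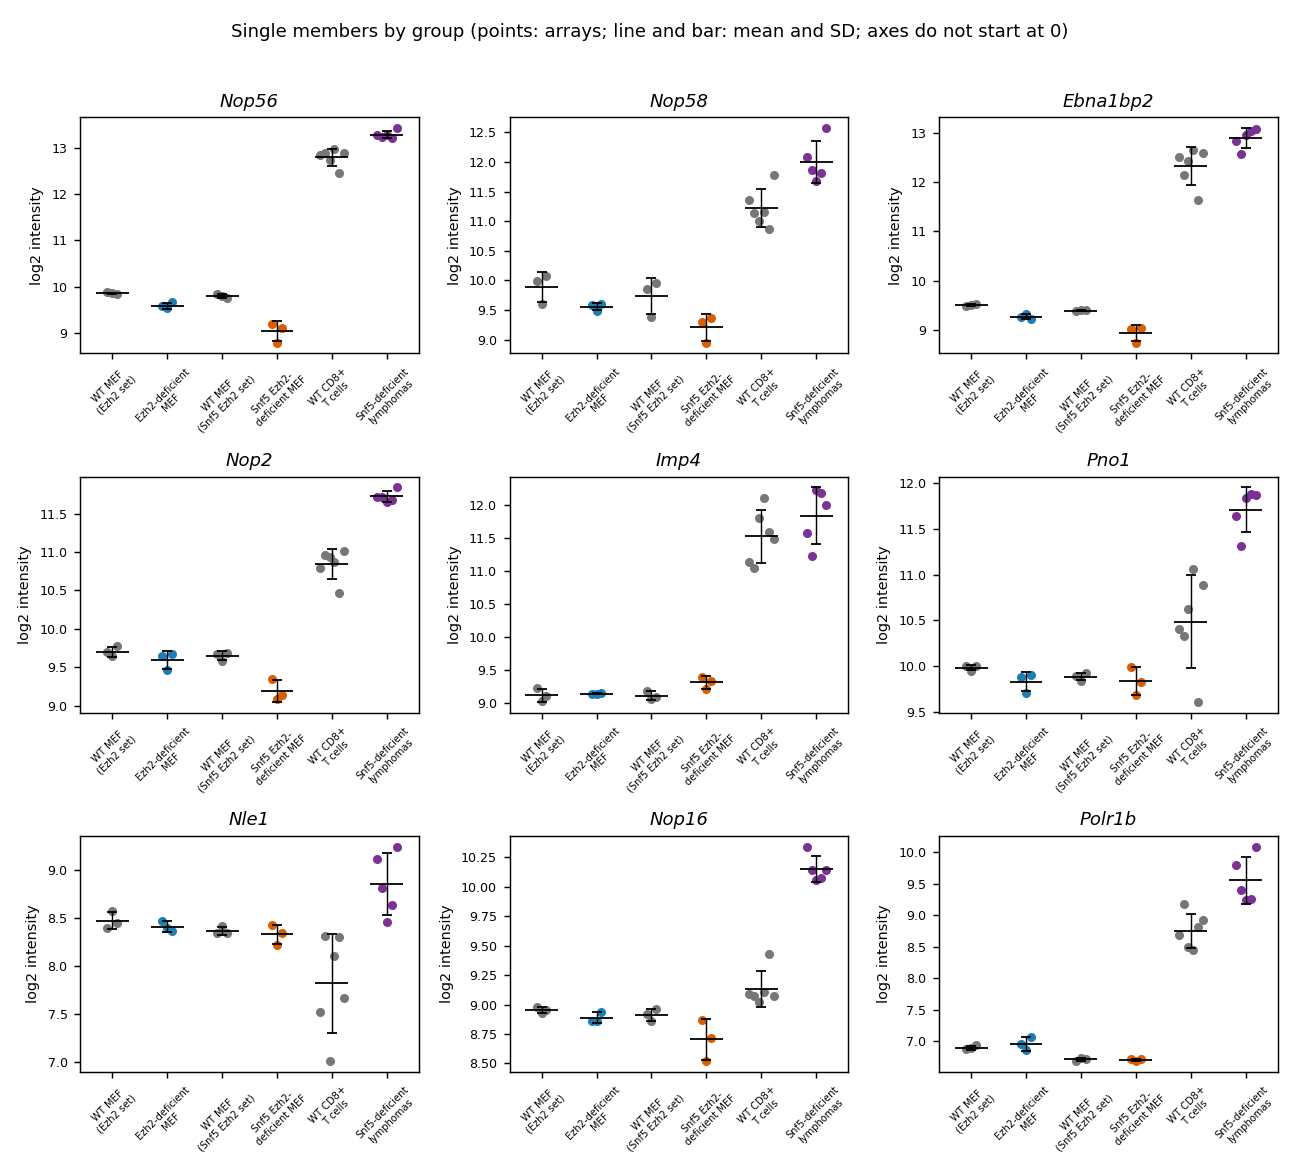
Log2 intensity of 9 members on every array (points), with the mean and SD of each group (line and bar), in the 6 groups. Nop56 shows the Snf5 Ezh2-deficient arrays at 8.8 to 9.21 below controls at 9.77 to 9.85, and Nop16 shows the lymphoma arrays at 10.06 to 10.34 above wild type at 9.02 to 9.43.

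Of the 106 further assembly factors 29 (27.4%) were higher and 0 lower in lymphomas, with a median of 0.42, where 9.13% of all genes were higher. Against wild-type arrays 2 to 5, 19 (17.9%) were higher and 1 lower, which is nearer to the 13.2% of all genes that were higher there. Small subunit factors held 12 higher of 36, led by Ltv1 (1.24) and Tsr2 (1.05), and 7 against arrays 2 to 5, where neither of these was called. Large subunit factors held 11 of 41, led by Rsl1d1 (1.21) and Sdad1 (1.07), and also 7 against arrays 2 to 5, Sdad1 among them. Of 6 snoRNP assembly factors 3 were higher, led by Nufip1 (1.06) and Ruvbl1 (0.82), and of 12 exosome genes 3, led by Mphosph6 (0.98) and Exosc2 (0.75), with 3 and 2 against arrays 2 to 5. Of 11 polymerase I factors 0 were called with all wild-type arrays, with a median of 0.3, and against arrays 2 to 5 the median was 0.06 and Ttf1, the termination factor of polymerase I, was lower by 0.71 (adjusted p = 0.0353). Of 45 ribosomal protein genes 1 was higher, Rps27l at 0.9 (adjusted p = 0.0191), with a median of 0.01, and against arrays 2 to 5 there were 1 higher and 3 lower. With all wild-type arrays 0 of 9 Myc network genes were called, and against arrays 2 to 5 Max, the partner of Myc, was lower by 0.67 (adjusted p = 0.0238). Myc was called in neither and read 12.56, 11.74, 12.23, 11.91 and 12.69 in lymphomas against 11.71 to 12.15.

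Of the 18 members lower in Snf5 Ezh2-deficient MEFs, 10 (55.6%) were among the 20 higher in lymphomas, of which they made up 50%. Since 50% of all 40 members were higher in lymphomas, the share among those 18 is close to that of the members at large. Over all genes, 212 of the 1778 lower in Snf5 Ezh2-deficient MEFs (11.9%) were higher in lymphomas. The 10 members were Nop56, Nop58 and Nhp2 of the snoRNPs, Heatr1, Tbl3, Noc4l and Tsr1 of small subunit assembly, and Nop2, Bop1 and Gnl3 of large subunit assembly. The comparisons share no array, and the overlap was not tested. Pno1, Nle1, Bysl and Polr1b, which were higher in lymphomas, differed from wild-type MEFs by -0.05, -0.04, -0.08 and -0.01 in Snf5 Ezh2-deficient MEFs, none of them called. Ddx21 and Ebna1bp2, which fell in those MEFs, were not called in lymphomas with all wild-type arrays on their chosen probe sets.

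Further probe sets existed for 23 members, 29 in all, and did not always agree. In Snf5 Ezh2-deficient MEFs 13 of them belonged to a called member, and 12 of these had the same sign and 9 the same call. The second Nop56 probe set differed by -0.74 (adjusted p = 0.000194), while that of Ebna1bp2 differed by -0.01 (adjusted p = 0.926) and that of Mphosph10 by 0.03. Means over all arrays were 11.12 for that of Nop56, but only 5.44 for Ebna1bp2, 6.67 for Mphosph10 and 6.99 for Imp4. The second Imp4 probe set was also higher, by 0.58 (adjusted p = 0.0032), and 1 Ncl probe set was lower by 0.71. In Ezh2-deficient MEFs that Imp4 probe set was higher too, by 0.67 (adjusted p = 0.0155), where the chosen one was not called.

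In lymphomas 11 further probe sets belonged to a called member, of which 10 had the same sign and 2 the same call, those of Nop56 (0.7) and Nhp2 (1.33). The second probe set of Nop16 differed by 0.26 (adjusted p = 0.424) and that of Wdr12 by -0.34 (adjusted p = 0.372). Their means over all arrays were 6.74 and 7.71. Brighter ones also missed the threshold, such as those of Nip7 (0.2, adjusted p = 0.661, mean 8.62) and Bysl (0.35, adjusted p = 0.341, mean 8.34). Another 6 probe sets were called higher where the chosen one was not, among them those of Ddx21 (0.77), Polr1c (0.92) and Nolc1 (1.1). The probe set shared by Mrto4 and its pseudogenes differed by -0.02 in Snf5 Ezh2-deficient MEFs (adjusted p = 0.869) and by 0.65 in lymphomas (adjusted p = 0.0197).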

How the data were processed

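The series holds 23 samples measured on Affymetrix arrays, of which 20 were distinct hybridisations, and per the labels' protocols the authors preprocessed the CEL files with RMA. The deposited values were intensities on a linear scale, already background-corrected, normalised and summarised per probe set, and were taken to log2 here. Without 64 control probe sets the tests ran on 22626, of which 20380 named 1 gene, 691 several and 1555 none. Gene names came from the platform annotation, and 3 genes of the pathway lists were read through an older symbol.

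Fits used limma 3.58.1 in R 4.3.3 (lmFit and eBayes) with Benjamini-Hochberg adjustment over all probe sets. The MEF fit held 9 distinct arrays, the repeated wild-type arrays averaged after the second set was shifted per probe set by the offset of its own controls, with 6 residual degrees of freedom. The T cell fit held 11 arrays with 9 residual degrees of freedom, and 7 with wild-type arrays 2 to 5. In T cells an exact permutation test, two-sided and unadjusted, was run on the group means of each of the 40 members. The number of arrays limits precision, and the median standard error over genes was 0.0762 in MEFs and 0.229 in T cells. All p-values measure the spread between the samples deposited as replicates.

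Values on every array are given for the 3 called members with the largest rise and the 3 with the largest fall in each comparison against wild type, and for the called member with the largest change of each role, or the member of smallest p in a role without calls. Nop2, Nop10, and Nop56 in the lymphoma comparison were named outside that rule after their values were seen. Up to 2 called genes with the largest change stand for each further list. The members, lists and motifs were chosen with earlier results of these data known. Alternatives changed the normalisation, the filter, the prior, the weights, the choice of probe set, a pseudocount, a replicate block and the arrays used. The steps were tested on simulated data.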

Additional observations from a re-analysis of the deposited data

Results flagged for a closer look

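In groups of 5 or 6 arrays, a sample was singled out where its gap to the nearest other sample exceeded the 95% critical share of the group's range in Dixon's test. Over 80 such groups, the 40 members in both T cell groups, 2 samples were found, and chance gives about 1 in 20. Rrp9 read 8.13 on wild-type CD8 array 1, below 8.91 to 9.32 on the other 5. Nop16 read 9.43 on wild-type CD8 array 5, above 9.02 to 9.11 on the other 5 and still below all lymphoma arrays.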

How the results depend on the processing

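In Snf5 Ezh2-deficient MEFs the count of 18 lower members stayed within 1.5 times under every alternative run, and no called member of any comparison changed sign. The single rise became 0 with median centring, an Eif2s3y covariate or each set fitted alone, 2 with the filter on the lowest 25% of probe sets, array weights, a trended robust prior, the mean of all probe sets, a pseudocount of 16 or 12 arrays taken as separate, and 3 with quantile normalisation, and without single arrays it ranged from 0 to 1. In Ezh2-deficient MEFs the 0 lower members became 2 with array weights and 3 with 12 arrays, and the 0 higher members became 1 with the mean of all probe sets. Between the mutant lines the 6 lower members became 10 with quantile normalisation and 2 with the Eif2s3y covariate or 12 arrays, and 3 to 6 without single arrays, while the 2 higher ones became 0 with the covariate or 12 arrays and 1 to 3 without single arrays. In lymphomas the 20 higher members became 13 with median centring, 6 on arrays 3 and 4 only and 3 without arrays 3 and 4, the last 2 chosen after the values were seen, and 9 to 21 without single arrays. Against wild-type arrays 2 to 5 the 18 became 9 with median centring and 8 to 21 without single arrays, with 9 without wild-type array 3 or lymphoma array 1 or 3, 10 without lymphoma array 4 and 8 without lymphoma array 5. Fits that left arrays out also held fewer arrays, and the cause of these changes was not tested. Median centring moved the median of all genes in that comparison from -0.105 to -0.202. Whether the replicate numbers pair the samples was not settled. Between mutant and wild-type MEFs, correlations of same-numbered arrays ranged from -0.0335 to 0.179 and those of differently numbered ones from -0.227 to 0.0975. Between lymphoma and wild-type T cells they ranged from 0.0835 to 0.352 for the same number and from -0.255 to 0.289 for different numbers. With the replicate block 17 members were lower in Snf5 Ezh2-deficient MEFs, 16 higher in lymphomas and 11 against wild-type arrays 2 to 5. Over all alternatives 13 of 19 called members kept their call in Snf5 Ezh2-deficient MEFs, and 2 of 20 in lymphomas.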
